A study of Homo sapiens with 4 samples.

Results

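Genes with less RNA after phytohemagglutinin (PHA) were collected in Jurkat, a human leukemia line of T lymphoblasts, here of the WT genotype. Cells were kept for 24 h in DMSO, the solvent control, or in JQ1 at 0.5 μM, and each of these was given alone or together with PHA at 150 ng/ml. Each of the 4 conditions gave 1 RNA-seq library, named here DMSO, JQ1, DMSO + PHA and JQ1 + PHA. The members were selected on these measured values: an FPKM that averaged at least 1 over the libraries, an FPKM with DMSO + PHA at most 0.5 times that with DMSO, and an FPKM with JQ1 more than 0.25 times that with DMSO, each after 0.1 was added. Gene names starting HIST, RPL, RPS or ZNF were left out. FPKM is the read count divided by the length of the gene and by the total of the library, a level that can be set beside that of another gene. Of 50868 genes, 11503 passed the filter on the mean, 137 of these (1.19%) were at least 2-fold lower with PHA, and 109 became members after 21 had been left out by the JQ1 ratio and 7 by name. The fall with PHA in DMSO-treated cells is therefore what chose the members and not a result.

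PHA is a plant lectin that binds sugars on T-cell surface receptors and sets off the signals of an engaged T-cell receptor, through calcium and NFAT, MAP kinases and NF-κB. JQ1 occupies the acetyl-lysine pockets of BET proteins and displaces them from acetylated chromatin, where they help RNA polymerase II to leave the promoter. T-cell activation is known best for the genes that it turns on, among them cytokines and surface receptors.

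Total counts lay between 18620954 and 19685401 per library. No condition had a replicate, so no difference between libraries was tested and none can be told apart from the difference between single cultures. Each interval for a gene, or for genes summed, is the exact 95% Clopper-Pearson interval for the log2 ratio of count shares. It covers counting error only. Ratios of genes summed, and those named as count ratios, are of count shares with nothing added. All other log2 ratios are of FPKM after 0.1 was added, which makes them smaller than the count ratios for low genes. A sum and its member alone can therefore differ in measure. The labels were checked on genes that are no members. HEXIM1, which BET inhibitors are known to raise, had an FPKM of 36.2 in DMSO, 109 in JQ1, 34.6 in DMSO + PHA and 104 in JQ1 + PHA. EGR1, an early gene of T-cell activation, was at 0.491, 0.405, 39.9 and 6.85 in the same order. All 12 T-cell markers had a mean FPKM of at least 1, with sums between 176 and 609, and the markers of B cells, myeloid, erythroid, epithelial cells and fibroblasts summed to at most 7.57.

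The members were genes of low to middle level. Their median FPKM was 3.10 in DMSO, 2.63 in JQ1, 1.07 in DMSO + PHA and 2.66 in JQ1 + PHA. The levels with DMSO ran from 0.550 for LINC01389 to 32.7 for CDV3, and 75 members had at least 50 counts in the DMSO library while 34 had fewer. The median log2 ratio of DMSO + PHA to DMSO was -1.27, the rule allowing no value above -1. For 93 members the interval of this ratio lay below 0, and for 16 it included 0. The same ratio chose the members, so these numbers describe counting error only and are no support for a fall. R3HDM4, CLDND1 and NCK1-AS1 lay just inside the threshold, with ratios of 0.499, 0.498 and 0.491, and PELP1, ADAMTS17 and CTD-2319I12.10 just outside it, with 0.503, 0.503 and 0.506.

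**Figure D1:**
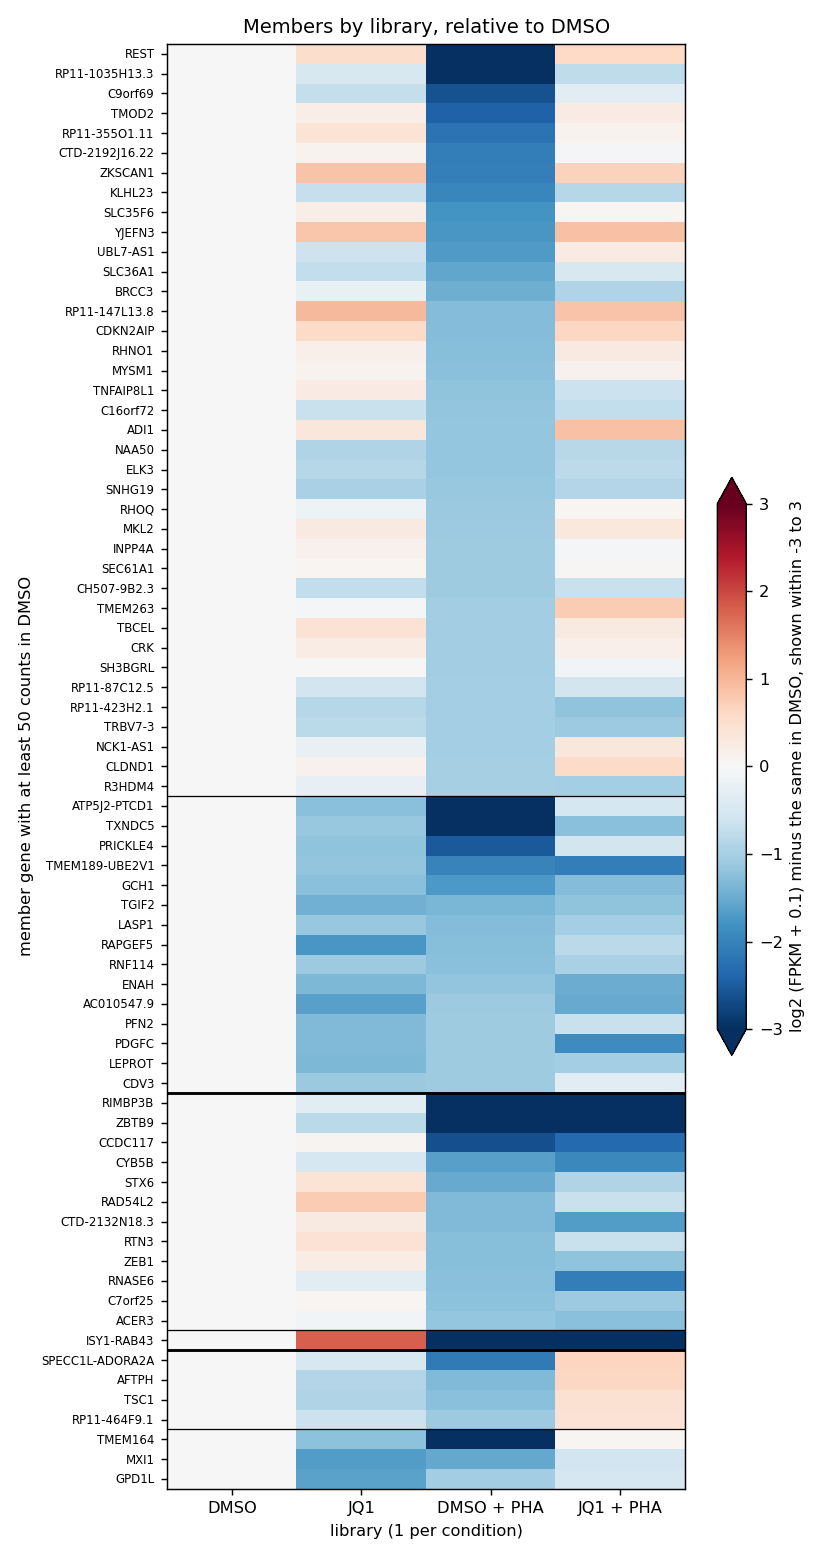
FPKM of 73 of the 75 members with at least 50 counts in DMSO, as the log2 of FPKM + 0.1 minus the same in DMSO, with 1 column per library and colors kept within -3 to 3. Thick lines part genes within 2-fold, lower and higher in JQ1 + PHA against JQ1, thin lines part them by JQ1 against DMSO. Most rows are blue in the DMSO + PHA column, by the rule, and pale in the JQ1 + PHA column.

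The fall with PHA was seen in JQ1-treated cells for a minority of the members. In JQ1 + PHA against JQ1, a pair of libraries that the PHA threshold did not use, 17 of the 109 members (15.6%) were at least 2-fold lower, against 1.03% of all genes that passed, and 7 (6.42%) were at least 2-fold higher, against 1.04%. Both libraries did enter the filter on the mean, and JQ1 also entered the limit on its ratio to DMSO. The remaining 85 lay within 2-fold. The median log2 ratio of the members was -0.08 and that of all genes -0.00. At this depth, the interval lay below 0 for 28 members, above 0 for 23 and included 0 for 58.

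In JQ1-treated cells the 14 members with at least 50 counts in DMSO that were lower with PHA by 2-fold included RIMBP3B, ISY1-RAB43, ZBTB9, CCDC117, CYB5B, STX6, RAD54L2, CTD-2132N18.3, RTN3, ZEB1, RNASE6, C7orf25 and ACER3. ISY1-RAB43 and CTD-2132N18.3 share all of their exonic bases with other genes. Summed with those genes, their log2 ratios of JQ1 + PHA to JQ1 were 0.34 and -0.68. The sums of CYB5B, STX6, RAD54L2 and C7orf25 with the genes that share their exons stayed at least 2-fold lower. CCDC117, a coiled-coil gene on chromosome 22 (28772674 to 28789301), had an FPKM of 26.7 in DMSO, 28.1 in JQ1, 4.22 in DMSO + PHA and 5.19 in JQ1 + PHA. Both libraries with PHA were thus far below both without it, whatever the JQ1. Its log2 ratio of JQ1 + PHA to JQ1 was -2.41, and the count ratio from 4653 and 814 counts was -2.44 (interval -2.54 to -2.33).

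**Figure D2:**
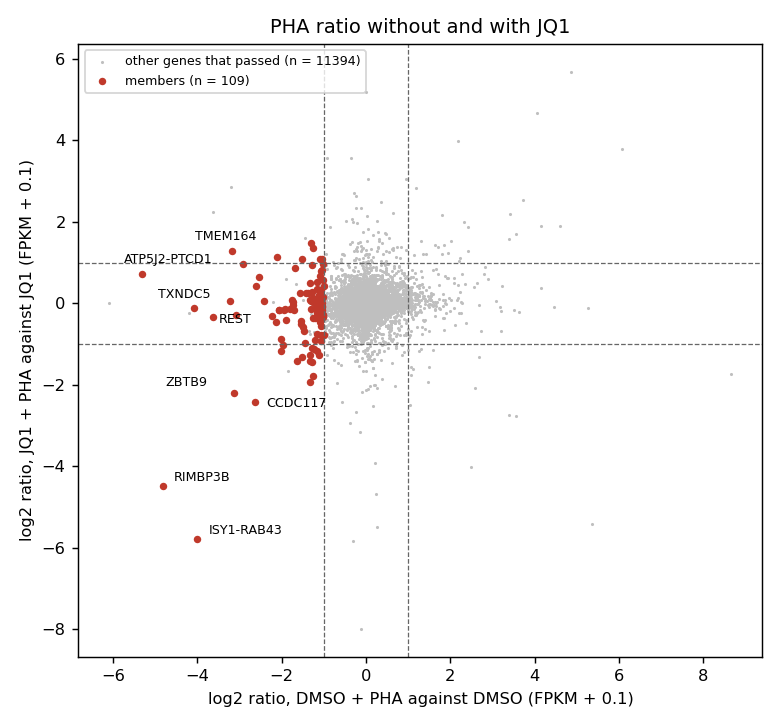
Log2 ratio of FPKM + 0.1 for PHA in DMSO-treated cells (horizontal) and in JQ1-treated cells (vertical), with members in red, other genes that passed in gray, and dashed lines at 2-fold. By the rule all members lie left of the line at -1, and on the vertical axis they run from -5.79 for ISY1-RAB43 to 1.49 for AFTPH. Summed with the genes that share its exons, ISY1-RAB43 had a count ratio of 0.34 on the vertical comparison.

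Without PHA, more members were at least 2-fold lower than higher with JQ1. In JQ1 against DMSO, 23 members (21.1%) were at least 2-fold lower, against 8.65% of all genes that passed, and 6 (5.50%) were at least 2-fold higher, against 5.22%. The median log2 ratio was -0.28, against -0.01 for all genes, and it turned to 0.03 when the filter on the mean was raised from 1 to 5. An interval over the members, -0.55 to 0.04, takes genes as units, which are not replicates of a condition. This comparison shares the DMSO library with the rule, which picked genes that were high there, and the rule let no member fall 4-fold or more with JQ1. Among the 75 members with at least 50 counts, 18 were lower and 1, ISY1-RAB43, was higher. Summed with the genes that share its exons, ISY1-RAB43 had a log2 ratio of -0.13. Of the lower members, 5 share at least 50% of their exonic bases, and only the sum for TXNDC5 stayed 2-fold lower, at -1.12. The sums were at -0.78 for PRICKLE4, -0.50 for ATP5J2-PTCD1, -0.19 for AC010547.9 and -0.03 for TMEM189-UBE2V1.

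With PHA, most members were higher with JQ1 than without it. In JQ1 + PHA against DMSO + PHA, 53 members (48.6%) were at least 2-fold higher, against 3.69% of all genes that passed, and 1, RP11-137J7.3, was lower, against 8.0%. The median log2 ratio was 0.96, against -0.02 for all genes. The rule picked genes that were low in the DMSO + PHA library, which this comparison shares. Among the 53 are IGHV4-39, RP11-638I2.4 and LINC01389, which passed the filter on the mean through the libraries with JQ1. Against the DMSO library, the level with JQ1 + PHA was within 2-fold for 75 members, at least 2-fold lower for 31 and at least 2-fold higher for 3. The rule picked genes that were high in the DMSO library, and these shares were not computed over all genes. Whether they are particular to the members was therefore not tested.

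**Figure D3:**
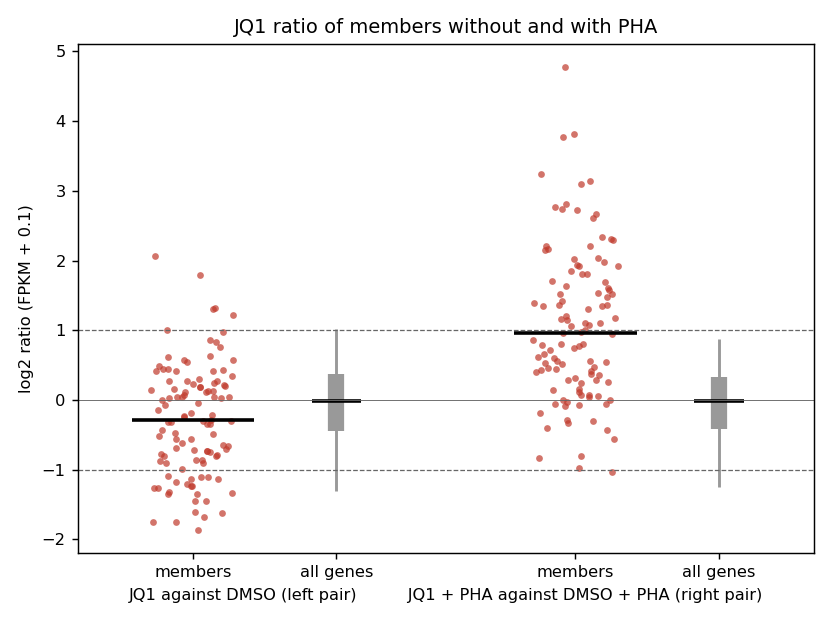
Log2 ratio of FPKM + 0.1 with JQ1 against DMSO (left) and with JQ1 + PHA against DMSO + PHA (right). Each red point is 1 of the 109 members and the black line their median, -0.28 and 0.96, while gray bars give the middle 50% and gray lines the 5th to 95th percentile of all 11503 genes around a median of -0.01 and -0.02.

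In 37 members the DMSO + PHA library alone stood apart, at least 2-fold below each of the other libraries, which lay within 2-fold of one another. Over all genes that passed, 41 (0.356%) had this pattern. That 37 of these are members was fixed largely by the rule, which used the same DMSO, JQ1 and DMSO + PHA values. The DMSO library alone was low in 59 genes, the JQ1 library in 31 and the JQ1 + PHA library in 28. DMSO + PHA was the lowest of the libraries in 84 members, JQ1 + PHA in 14 and JQ1 in 11. RIMBP3B and ISY1-RAB43, at 0 in both libraries with PHA, were counted for DMSO + PHA. The rule, which set DMSO + PHA below DMSO, fixed much of this order, and it was not counted over all genes.

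Members that act on transcription and chromatin numbered 10, in a grouping by function made after the members were known. With PHA in JQ1-treated cells 3 of them (ZBTB9, ZEB1 and RAD54L2) were at least 2-fold lower, 1 (MXI1) was higher and 6 lay within 2-fold. REST, the repressor that keeps neuronal genes silent in other tissues (chromosome 4, 56907876 to 56935844), had an FPKM of 6.31 in DMSO, 9.22 in JQ1, 0.581 in DMSO + PHA and 9.53 in JQ1 + PHA. The DMSO + PHA library was the low one, with 186 counts where the others had 1933 to 2951. The log2 ratio of JQ1 + PHA to JQ1 was 0.05 (interval -0.03 to 0.12). ZKSCAN1, a zinc finger factor with SCAN and KRAB domains, was also low in DMSO + PHA alone, at 9.28, 16.9, 2.16 and 15.0.

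ZEB1, a zinc finger repressor of IL2 in T cells and of E-cadherin in epithelia, had an FPKM of 8.21 in DMSO, 9.59 in JQ1, 3.34 in DMSO + PHA and 3.47 in JQ1 + PHA. Here the libraries parted by PHA alone. With JQ1 the log2 ratio for PHA was -1.44 (interval -1.56 to -1.37). ZBTB9, a BTB zinc finger gene, was at 5.46, 3.09, 0.538 and 0.592 in the same order, and RAD54L2, an ATPase of the SNF2 helicase family, at 7.76, 13.2, 3.02 and 4.85. RAD54L2 was therefore highest with JQ1 and fell by 1.42 on the log2 scale when PHA was added to it.

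Another order was lower with JQ1 in the absence of PHA. TGIF2, a homeobox repressor in TGF-β signaling, had an FPKM of 3.76 with DMSO and of 1.31, 1.40 and 1.57 with JQ1, DMSO + PHA and JQ1 + PHA, so the DMSO library stood above the rest. MXI1, a partner of MAX that opposes MYC, was at 2.99 in DMSO, 0.870 in JQ1, 0.973 in DMSO + PHA and 1.98 in JQ1 + PHA. Each agent alone gave a low level of MXI1 and the pair a level closer to that of DMSO. The remaining members that act on transcription were ELK3, an ETS factor, at 2.42, 1.29, 1.03 and 1.36, MKL2, a coactivator of SRF, at 2.61, 3.17, 1.16 and 3.26, and MYSM1, a histone deubiquitinase, at 6.07, 6.57, 2.49 and 6.67.

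The promoters of REST, ZEB1 and TGIF2 are printed because these genes stand for the 3 orders of the libraries: low with DMSO + PHA alone, low with PHA in both, and high with DMSO alone. Each runs from 250 bases before to 50 after the RefSeq gene start (GRCh38.p14), 5′ to 3′ on the strand of the gene, with every GC box (GGGCGGG or its complement CCCGCCC) in capitals.
REST, chr4:56907650-56907949, plus strand: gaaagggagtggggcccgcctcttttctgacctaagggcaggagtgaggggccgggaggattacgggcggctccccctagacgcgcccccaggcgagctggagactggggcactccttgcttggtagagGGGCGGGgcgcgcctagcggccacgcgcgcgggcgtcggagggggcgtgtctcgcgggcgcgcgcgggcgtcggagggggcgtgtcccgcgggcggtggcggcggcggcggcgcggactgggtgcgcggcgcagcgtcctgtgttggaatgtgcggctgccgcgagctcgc
ZEB1, chr10:31318167-31318466, plus strand: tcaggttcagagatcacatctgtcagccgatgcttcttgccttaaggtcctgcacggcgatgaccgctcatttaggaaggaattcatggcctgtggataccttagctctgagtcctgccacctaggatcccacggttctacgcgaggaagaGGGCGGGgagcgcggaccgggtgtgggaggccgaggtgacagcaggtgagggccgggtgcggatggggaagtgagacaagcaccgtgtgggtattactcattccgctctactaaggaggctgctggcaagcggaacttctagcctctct
TGIF2, chr20:36573214-36573513, plus strand: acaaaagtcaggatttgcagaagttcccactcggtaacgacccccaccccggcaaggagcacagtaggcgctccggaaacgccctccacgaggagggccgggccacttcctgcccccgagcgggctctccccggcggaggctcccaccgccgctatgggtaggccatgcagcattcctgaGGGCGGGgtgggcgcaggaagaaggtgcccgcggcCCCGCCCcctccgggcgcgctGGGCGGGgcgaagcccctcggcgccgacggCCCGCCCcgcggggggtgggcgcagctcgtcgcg
The promoter of REST holds 1 GC box, that of ZEB1 1 and that of TGIF2 4, and their GC content was 76%, 58.3% and 74%.

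Of the 66 protein-coding members 48 were matched to a RefSeq promoter, as were 7849 of the 9489 protein-coding genes that passed. A GC box was in 26 of the 48 (54.2%) and in 55.2% of the promoters of all coding genes that passed, and the CCAAT box in 37.5% and 38.1%. Motifs of factors that PHA signaling employs were searched on both strands. AP-1 (TGANTCA) was found in 2 of the 48 (4.17%, against 3.81%), NFAT (GGAAAA) in 6 (12.5%, against 20.2%), and NF-κB (GGGANTTCC) in 0, against 2.41%. The ETS motif CCGGAAGT was in 2 (4.17%, against 10.5%) and CRE (TGACGTCA) in 0, against 3.69%. With 48 promoters, each of these shares rests on a few genes.

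Among 3 members of the DNA damage response or partners of p53, none was lower with PHA at 2-fold in JQ1-treated cells. BRCC3, a deubiquitinase of the BRCA1-A complex, was at an FPKM of 8.66 in DMSO, 7.43 in JQ1, 3.08 in DMSO + PHA and 4.59 in JQ1 + PHA. RHNO1, a partner of the checkpoint clamp that activates ATR, was at 3.82, 4.26, 1.53 and 4.59, and CDKN2AIP, which binds ARF and p53, at 8.67, 12.9, 3.47 and 13.5. For RHNO1 and CDKN2AIP the levels with JQ1 + PHA and with JQ1 could not be told apart by counting error, with intervals of their log2 ratio from -0.03 to 0.25 and from -0.05 to 0.17.

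The secretory pathway and membrane traffic gave 6 members, 1 of which, TXNDC5, is described with the shared exons. SEC61A1, the channel through which proteins enter the endoplasmic reticulum, had an FPKM of 22.5 in DMSO, 23.3 in JQ1, 10.7 in DMSO + PHA and 23.1 in JQ1 + PHA, so that 1 library was low. RTN3, which shapes the membrane of the endoplasmic reticulum, was at 15.1, 20.5, 6.12 and 9.49, and STX6, a SNARE of the trans-Golgi network and endosomes, at 5.11, 6.86, 1.73 and 2.68. Both were low in the libraries with PHA, with log2 ratios in JQ1-treated cells of -1.10 (interval -1.18 to -1.05) for RTN3 and -1.33 (interval -1.48 to -1.23) for STX6. AFTPH, a clathrin partner, was at 3.34, 1.78, 1.29 and 5.16, highest where both agents were present. LEPROT, which shares its first exons with the leptin receptor gene, was at 1.99, 0.718, 0.893 and 0.927.

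Cytoskeletal and adhesion-signaling members numbered 8, and in JQ1-treated cells none of these was 2-fold lower or higher with PHA. TMOD2, which caps the pointed end of actin filaments, had an FPKM of 6.30 in DMSO, 7.21 in JQ1, 1.10 in DMSO + PHA and 7.48 in JQ1 + PHA. CRK, an adaptor downstream of tyrosine kinases, was at 12.3, 14.4, 5.95 and 13.8. In these, as in TBCEL and RHOQ, DMSO + PHA was the low library. The other 4, all binders of actin or a regulator of Rap, were at least 2-fold lower with JQ1 alone. LASP1 was at 9.83 in DMSO, 4.43 in JQ1, 3.96 in DMSO + PHA and 4.77 in JQ1 + PHA, ENAH at 2.11, 0.771, 0.879 and 0.692, and PFN2, a profilin, at 3.29, 1.24, 1.5 and 2.03. RAPGEF5, an exchange factor for Rap, was at 1.97, 0.515, 0.756 and 1.08, with a log2 ratio of JQ1 to DMSO of -1.75, near the limit of the rule.

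Enzymes and transporters made up 12 members, of which 4, CYB5B, ACER3 and RNASE6 among them, were at least 2-fold lower and 1 (GPD1L) at least 2-fold higher with PHA in JQ1-treated cells. CYB5B, the cytochrome b5 of the mitochondrial outer membrane, had an FPKM of 14.8 in DMSO, 10.4 in JQ1, 4.68 in DMSO + PHA and 3.82 in JQ1 + PHA. ACER3, an alkaline ceramidase, was at 2.01, 1.90, 0.839 and 0.789 in the same order. Both were low in both libraries with PHA. RNASE6, a secreted ribonuclease, rests on 62, 52, 26 and 13 counts.

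GCH1, the first enzyme of tetrahydrobiopterin synthesis, was at an FPKM of 2.55 in DMSO, 1.01 in JQ1, 0.695 in DMSO + PHA and 0.976 in JQ1 + PHA, high in the DMSO library alone. ADI1, a dioxygenase of methionine salvage, was at 19.3, 24.7, 8.65 and 35.7, and its highest level was with JQ1 + PHA. GPD1L, an enzyme related to glycerol-3-phosphate dehydrogenase, was at 3.65, 1.13, 1.71 and 2.54. NAA50, an N-terminal acetyltransferase, had the most counts of any member, 8241 in DMSO, 4573 in JQ1, 3866 in DMSO + PHA and 4582 in JQ1 + PHA. Other enzymes and transporters were INPP4A, a phosphoinositide phosphatase, at an FPKM of 8.91, 9.79, 4.20 and 8.56, SLC36A1, an amino acid transporter, at 2.72, 1.59, 0.863 and 1.93, and SLC35F6 at 2.80, 3.21, 0.734 and 2.91.

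Among the 4 members in growth control, ubiquitin transfer and growth factors, TSC1, the hamartin subunit of the complex that restrains mTORC1, had an FPKM of 7.20 in DMSO, 3.81 in JQ1, 2.97 in DMSO + PHA and 9.86 in JQ1 + PHA. Each agent alone was below DMSO and the pair above it. In JQ1-treated cells its log2 ratio for PHA was 1.35 (interval 1.27 to 1.47). RNF114, a ubiquitin ligase, was at 9.22, 4.27, 3.82 and 4.68, KLHL23, a Kelch protein, at 8.43, 5.20, 2.11 and 4.64, and PDGFC, a growth factor ligand, at 2.32, 0.872, 1.05 and 0.557.

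Members without a group by function included several of the highest levels. CDV3 was at an FPKM of 32.7 in DMSO, 15.1 in JQ1, 15.6 in DMSO + PHA and 26.3 in JQ1 + PHA, and SH3BGRL at 30.7, 30.8, 15.0 and 29.2. TMEM164, a membrane protein gene on the X chromosome, was at 6.18, 2.56, 0.589 and 6.44, so its level with both agents was that of DMSO. C9orf69 was at 4.03, 2.41, 0.579 and 3.24. TMEM263 was at 2.03, 1.97, 0.932 and 3.53, CLDND1 at 4.22, 4.64, 2.05 and 6.31, TNFAIP8L1 at 2.56, 3.05, 1.04 and 1.59, and R3HDM4 at 6.09, 5.14, 2.99 and 2.95.

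Many members share exons with another gene. On GENCODE release 44, 18 of the 109 members (16.5%) had at least 50% of their exonic bases in an exon of another gene on the same strand, against 2.56% of all genes that passed, and 28 (25.7%, against 11.5%) had any such base. Among coding genes the shares at 50% were 19.7% and 1.77%. How the authors' counting assigned a read that falls on 2 such genes is not given in the sources used here. The counts of each member were therefore summed with those of the genes that share its exons.

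TXNDC5, a thioredoxin-like protein of the endoplasmic reticulum (chromosome 6, 7881517 to 7910814), had 2775 counts in DMSO, 1320 in JQ1, 163 in DMSO + PHA and 1144 in JQ1 + PHA. BLOC1S5-TXNDC5, a readthrough gene that holds 60.9% of its exonic bases, had 0, 14, 2424 and 0 counts. The sum was 2775 with DMSO and 2587 with DMSO + PHA, a log2 ratio of -0.17 (interval -0.24 to -0.09), so the reads of this locus were not lower by 2-fold. The member named PRICKLE4 had 1000, 445, 168 and 671 counts while TOMM6, which overlaps it, had 210, 293, 1243 and 15. A second gene ID named PRICKLE4, which holds 56.4% of the member's exonic bases, had only 6, 5, 7 and 4 counts. With its partners the member came to 1216 with DMSO and 1418 with DMSO + PHA. Summing also turned the count ratio of JQ1 + PHA to DMSO + PHA, from 2.89 to -1.10 on the log2 scale for TXNDC5 and from 2.08 to -0.96 for PRICKLE4. Of the 53 members at least 2-fold higher with JQ1 in the presence of PHA, 14 share an exonic base. After summing, 3 of these 14 were still higher by 2-fold and 7 had a ratio below 0.

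**Figure D4:**
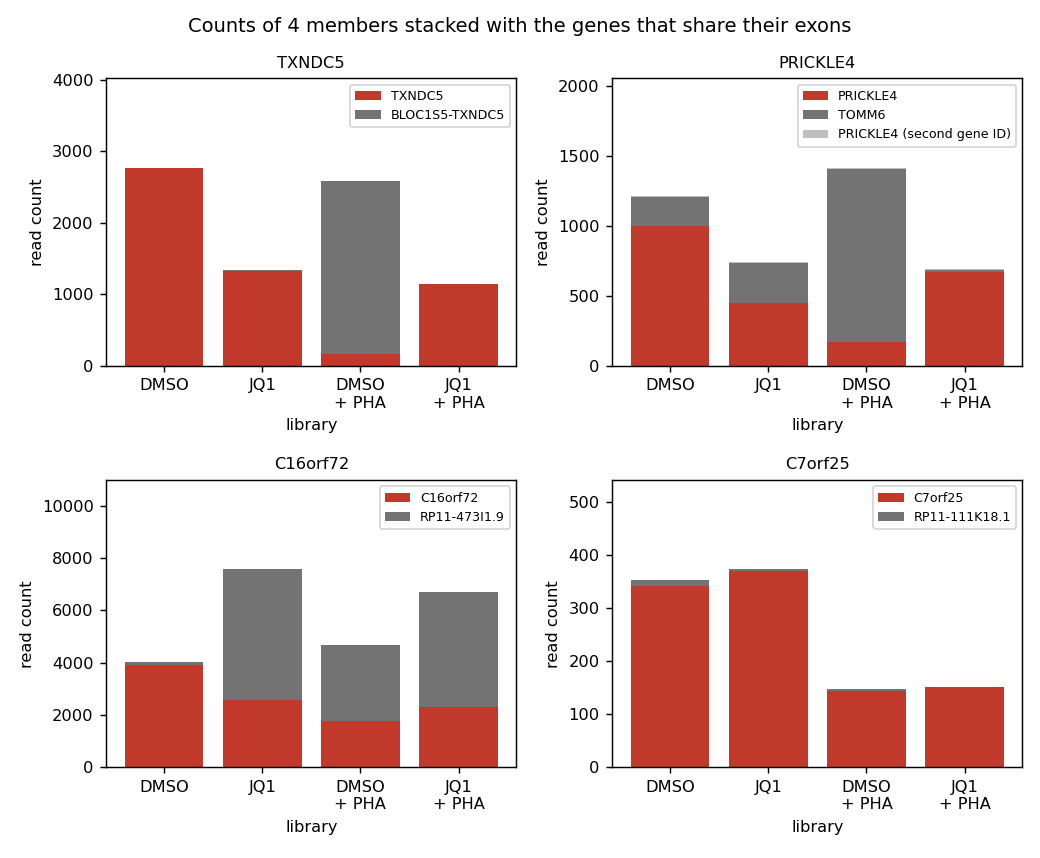
Read counts of 4 members (red) in the 4 libraries with those of the genes that share their exons on the same strand stacked on top (gray). The sums for TXNDC5, PRICKLE4 and C16orf72 are not 2-fold lower with DMSO + PHA than with DMSO, while that for C7orf25 falls from 353 to 148.

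C16orf72 had 3924, 2592, 1785 and 2312 counts in the order of DMSO, JQ1, DMSO + PHA and JQ1 + PHA, and RP11-473I1.9, which holds 52.5% of its exonic bases, had 111, 4983, 2901 and 4399. The sum was higher with DMSO + PHA than with DMSO, at 4686 and 4035. Of the 18 members with at least 50% shared, 1 (C7orf25) was still at least 2-fold lower with PHA after summing, and their median log2 ratio was -0.08. Of the 28 with any shared base, 6 were still lower. The sums can be led by an abundant partner, as for AC005363.9, whose 22 counts with DMSO stand beside 7796 of RPS2.

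The 4 members grouped as readthrough genes by their joined names hold exons of neighboring genes. They are not the only such members. CTD-2132N18.3 has 66.2% of its exonic bases in RAB5C and 33.8% in KAT2A, and AC010547.9 has 74.2% in ZNF23 and 17.2% in ZNF19. ATP5J2-PTCD1 had 275 counts in DMSO, 116 in JQ1, 1 in DMSO + PHA and 186 in JQ1 + PHA, while PTCD1 had 301, 330, 556 and 193. Its count ratio of DMSO + PHA to DMSO is wide, from -13.48 to -5.68 on the log2 scale. ISY1-RAB43 had 137, 521, 0 and 0 counts and RAB43 110, 21, 87 and 382. SPECC1L-ADORA2A had 191, 140, 36 and 304 counts, and TMEM189-UBE2V1 1182, 542, 302 and 275, beside 2296, 2774, 3132 and 3078 of UBE2V1. Summed with their partners, ISY1-RAB43, SPECC1L-ADORA2A and TMEM189-UBE2V1 had log2 ratios for DMSO + PHA against DMSO of 0.05, -0.00 and 0.07, and ATP5J2-PTCD1 of -0.50. YJEFN3, with 135, 258, 37 and 250 counts, shares exons with CTC-260F20.3, which had 14, 200, 191 and 25.

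RIMBP3B had 312 counts with DMSO, 259 with JQ1 and 0 in both libraries with PHA, at least 109-fold lower with DMSO + PHA than with DMSO and at least 81.7-fold lower with JQ1 + PHA than with JQ1, computed against 3 counts in the library with PHA. It lies on chromosome 22 (21383374 to 21389478) and has a pair of near copies there. Over 6105 bases it differs from RIMBP3C at 6 positions (99.9% identity) and from RIMBP3 at 14 (99.8%), and the longest stretch without a difference from RIMBP3C is 3553 bases. Bases 3616 to 3675 of each gene, 5′ to 3′ on its own strand from GRCh38, are printed to show how alike the copies are, with the positions at which the 3 copies are not all the same in capitals.
RIMBP3, chr22:18608245-18608304, minus strand: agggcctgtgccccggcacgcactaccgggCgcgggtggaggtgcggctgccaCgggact
RIMBP3B, chr22:21386989-21387048, plus strand: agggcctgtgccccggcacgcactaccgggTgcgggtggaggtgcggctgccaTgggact
RIMBP3C, chr22:21547787-21547846, minus strand: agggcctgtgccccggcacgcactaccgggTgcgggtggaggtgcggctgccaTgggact
In this window RIMBP3B and RIMBP3C are the same, and a read from it could belong to either. RIMBP3 had 84, 75, 97 and 72 counts and RIMBP3C 8, 1, 7 and 2 in the order of DMSO, JQ1, DMSO + PHA and JQ1 + PHA. The sum of the copies was 404, 335, 104 and 74, lower in both libraries with PHA, as was RIMBP3B. Because the copies are so alike, how the reads divide between RIMBP3B and RIMBP3C is uncertain.

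Among the 81 members that share no exonic base on the same strand, the counts were close in proportion to those of all members. In JQ1-treated cells 11 (13.6%) were at least 2-fold lower and 5 (6.17%) higher with PHA, against 0.844% and 0.884% of the 10070 such genes that passed, and the median log2 ratio was -0.04. With JQ1 alone 16 (19.8%) were lower and 5 (6.17%) higher, against 8.46% and 4.98%. With JQ1 in the presence of PHA 1 (1.23%) was lower and 39 (48.1%) were higher, against 7.87% and 3.63%. As for all members, these JQ1 comparisons share the DMSO or the DMSO + PHA library with the rule, which set the members high or low there. Of the 81, 17 have exonic bases in a gene on the other strand, from which reads could come if strand was not used in counting. The 64 members without a shared base on either strand were a split made after seeing the data. With PHA in JQ1-treated cells 9 (14.1%) were lower and 5 (7.81%) higher, against 0.854% and 0.908% of the 7376 such genes that passed. With JQ1 alone 15 (23.4%) were lower and 3 (4.69%) higher, against 8.80% and 4.99%. With JQ1 in the presence of PHA 1 (1.56%) was lower and 29 (45.3%) higher, against 8.15% and 3.74%. Of the 37 members in which DMSO + PHA alone stood apart, 28 share no exonic base on the same strand, among them REST, ZKSCAN1, TMOD2, SEC61A1 and CRK.

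By class, 66 members (60.6%) were protein-coding, against 82.5% of all genes that passed, 22 (20.2%, against 7.99%) were long noncoding RNAs, 13 (11.9%, against 7.87%) pseudogenes and 6 (5.50%, against 0.296%) antigen receptor segments. Of the noncoding members, 7 had at least 50 counts in DMSO, and of the pseudogenes 1. RP11-1035H13.3, classed as protein-coding, has all its exons in those of ARL6IP1 and RPS15A. It was at an FPKM of 22.5 in DMSO, 16 in JQ1, 2.59 in DMSO + PHA and 13.2 in JQ1 + PHA. Among the noncoding members, SNHG19, a host of small nucleolar RNAs, was at 15.4, 7.73, 6.98 and 8.32. UBL7-AS1 was at 1.88, 1.20, 0.514 and 2.26, and RP11-147L13.8 at 3.97, 7.92, 1.55 and 7.21.

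The antigen receptor segments were variable segments of the immunoglobulin heavy chain (IGHV3-33, IGHV4-39 and IGHVII-33-1) and of the T-cell receptor β chain (TRBV7-3, TRBV7-4 and TRBV13). Variable segments encode the part of the receptor that meets antigen. TRBV7-3 had 67 counts in DMSO, 40 in JQ1, 34 in DMSO + PHA and 31 in JQ1 + PHA, and the other 5 had at most 26 in the DMSO library. For IGHV4-39 the counts were 6, 17, 2 and 23, too few to give an order of the libraries.

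Coding members had long 3′ UTRs and few exons on the canonical GENCODE transcript. The median 3′ UTR was 2545.5 bases, against 1373 for coding genes that passed, and the median number of exons was 6, against 9. The 44 coding members that share no exonic base had a median of 2643 bases, against 1403 for coding genes without a shared base. Other sets past 2-fold differed from all genes as well: the median was 1799 bases for the 169 coding genes at least 2-fold higher with PHA in DMSO-treated cells, and 967 for the 803 at least 2-fold lower with JQ1 alone. For the 71 coding genes that were no members and were at least 2-fold lower with PHA in JQ1-treated cells it was 2255 bases.

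**Figure D5:**
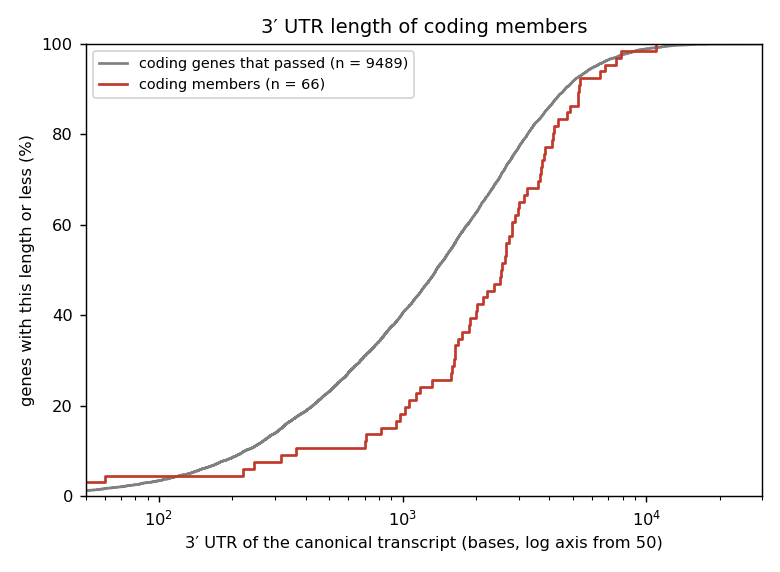
Cumulative share of genes (vertical, %) by the 3′ UTR length of the canonical transcript (horizontal, bases, log axis from 50) for the 66 coding members in red and the 9489 coding genes that passed in gray. The red curve lies to the right over the middle of the range, with medians of 2545.5 and 1373 bases.

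Lists of 515 genes of T-cell biology, metabolism, cell division, stress and signaling were examined beside the members. Of the 406 that passed, 4 (0.985%) were at least 2-fold lower with PHA in DMSO-treated cells, near the 1.19% of all genes that passed, and 24 (5.91%) were at least 2-fold higher, against 2.1%. MXI1, in the list of glycolysis and the hypoxia response, was the only member, and the lists of DNA replication, mitosis, cholesterol synthesis, heat shock, interferon response, T-cell receptor signaling, T-cell quiescence, adhesion, transporters and receptors held none. The other genes that were lower, RAG1, RAG2 and DNTT, which cut and extend antigen receptor genes in immature lymphocytes, were kept out of the members by the JQ1 ratio. RAG1 was at an FPKM of 42.9 in DMSO, 3.93 in JQ1, 11.8 in DMSO + PHA and 1.18 in JQ1 + PHA, RAG2 at 11.3, 2.19, 4.35 and 1.33, and DNTT at 49.0, 7.19, 16.8 and 5.25.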

How the data were processed

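RNA-seq was measured in 4 libraries of Jurkat cells, 1 per condition. The authors deposited, for each library, read counts per gene without normalization and FPKM, the counts divided by gene length and library total. The labels name Hisat2 and GRCh38, and the submitters' processing notes also list TopHat2 2.0.9 and Cufflinks 2.1.1. The labels name the VAHTS Universal V6 kit, whereas the study's methods give a stranded kit, so whether the libraries kept strand is unsettled. The counting program, its strand setting and its treatment of reads with several matches are not given in the sources used here. The tables were joined on the Ensembl identifier. Ratios of FPKM used a pseudocount of 0.1 for genes whose FPKM averaged 1 or more, and 3 counts were the floor. With 1 library per condition no test was made. The members and the gene lists were chosen with earlier results of these data known, and the groups by function after the members were known. Named genes were, among members with at least 50 counts in DMSO, the 12 largest falls, the 8 highest levels, the 6 lowest and 6 highest values of each other ratio, the members in a list, the 3 on either side of the threshold and checks of the labels. Other members were named after their values were seen. Some genes that this rule names are not reported here. Of the 24 listed genes that were higher with PHA, only the count is given.

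Exons, 3′ UTRs and classes were read from GENCODE release 44, which holds all 109 members and 49659 of the 50868 identifiers. There, 81 of the members have the same start as in the deposited data. The exons and 3′ UTRs can therefore differ from those on which the reads were counted. Exon sharing counts bases on the same strand. Promoters came from RefSeq. The ratio, filter and interval steps were tested on simulated data. The tools were scipy 1.17.1, pandas 2.3.3, numpy 2.4.6 and matplotlib 3.10.9 under Python 3.11.15. Scaling factors came from DESeq2 1.42.0 and edgeR 4.0.16 under R 4.3.3. The alternatives were the pseudocount, the filter, the threshold, the scaling, a count minimum and coding genes only.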

Additional observations from a re-analysis of the deposited data

Results flagged for a closer look

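In 7 members the change with PHA had opposite directions in the 2 treatments: each was at least 2-fold lower with PHA in DMSO-treated cells, by the rule, and at least 2-fold higher in JQ1-treated cells. The log2 ratios of JQ1 + PHA to JQ1 were 1.49 for AFTPH, 1.35 for TSC1, 1.30 for TMEM164, 1.13 for SPECC1L-ADORA2A, 1.10 for MXI1, 1.09 for GPD1L and 1.08 for RP11-464F9.1. With 1 library per condition the difference between the treatments was not tested. In all 7 the level with JQ1 alone was below that with DMSO, with log2 ratios from -1.67 for MXI1 to -0.48 for SPECC1L-ADORA2A. SPECC1L-ADORA2A and RP11-464F9.1 share almost all of their exonic bases with other genes. Their part in the result was not tested, and the sums with those genes had log2 ratios of JQ1 + PHA to JQ1 of -0.75 and -0.24.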

How the results depend on the processing

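The 11 alternatives gave 110 values, of which 73 stayed within 1.5 times a count or within the 95% interval of a median over the members. That interval takes genes as units and served only as a yardstick. Centring on the median gene, edgeR TMM factors and DESeq2 size factors moved none of the 10 values beyond these limits, and neither did leaving out genes that share at least 50% of their exonic bases, an alternative chosen after seeing the data. The number of members followed the cut-offs, from 109 to 47 with a pseudocount of 1, 517 with a mean FPKM of at least 0.1, 32 with a mean of at least 5, 369 at 1.5-fold and 66 with coding genes only. Because the counts are taken over these members, they moved with them. With a pseudocount of 1, 10 members were lower and 3 higher with PHA in JQ1-treated cells, 8 lower and 1 higher with JQ1 without PHA, and 20 higher with JQ1 with PHA. A pseudocount of 0.01 gave 12 higher with PHA in JQ1-treated cells and 3 lower with JQ1 with PHA. With a mean of at least 0.1 these counts were 87 lower and 60 higher, 136 lower and 25 higher, and 13 lower and 269 higher. With a mean of at least 5 they were 6 and 1, 5 and 0, and 0 and 15. At 1.5-fold they were 59 and 31, 145 and 37, and 44 and 141, and the median log2 ratio of JQ1 + PHA to DMSO + PHA was 0.37, against 0.96. With at least 50 counts in DMSO, 1 member was higher with JQ1 without PHA, and with PHA 0 were lower and 34 higher. Coding genes only gave 1, 0 and 30. The sign of the median of JQ1 against DMSO turned with a mean of at least 5, to 0.03 against -0.28. The interval of the latter over the members, -0.55 to 0.04, includes 0. It takes genes as units, which are not replicates of a condition, and does not cover the difference between cultures. The count of members higher with PHA in JQ1-treated cells was added after seeing the data.

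No paired analysis was possible because each condition has 1 library. Counts limit the 34 members with fewer than 50 in DMSO. For 58 members the interval of JQ1 + PHA against JQ1 included 0. It was narrow for genes with many counts, such as REST (-0.03 to 0.12), and wide for low ones, such as IGHV3-33 (-1.39 to 1.08). No replicate shows how much single cultures differ, and the assignment of reads between genes that share exons or sequence was not tested.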
